A study of Homo sapiens with 2 samples.

Results

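ODC1 encodes ornithine decarboxylase, and its transcript was lower in ebastine-treated prostate cancer cells than in vehicle-treated ones, at 354.95 FPKM in the ebastine library and 944 FPKM in the vehicle library. FPKM are fragments per kilobase of transcript, scaled to the number of mapped fragments, so levels can be set side by side between genes. ODC1 was taken from the table by its gene name, as 1 of 1947 listed genes, with its value in both libraries. It was chosen by its FPKM in this same contrast, so its ratio is a description here and no test of it was made. Of 7 further polyamine genes that were looked up, only spermine synthase (SMS) was listed. AMD1, SRM, SAT1, AZIN1, OAZ1 and OAZ2 were not listed.

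The cells were C4-2, an established human prostate cancer line of the LNCaP lineage that carries the androgen receptor. Cells at passage 10 to 15 were given 24 hours to attach, after which the ebastine group received medium with ebastine, an antihistamine that blocks the histamine H1 receptor, and the vehicle group received medium with vehicle. Both groups grew in the same serum-containing medium, each gave 1 library of polyadenylated RNA, and neither dose nor duration of exposure is given in the sources used here. With 1 library per group no value has an error, every ratio compares these libraries only, and the sequencing depth is unknown.

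Polyamines are small positively charged molecules that bind RNA, DNA and chromatin and are needed for growth. Ornithine decarboxylase makes putrescine from ornithine, S-adenosylmethionine decarboxylase (AMD1) supplies aminopropyl groups, and spermidine synthase (SRM) and spermine synthase (SMS) add them to make spermidine and spermine. Antizymes (OAZ1, OAZ2) bind ornithine decarboxylase and send it to the proteasome, antizyme inhibitor (AZIN1) opposes them, and the acetyltransferase SAT1 starts the way back. The prostate epithelium secretes spermine in large amounts, and ODC1 is a textbook target of MYC and of androgen in prostate cells.

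The table ends where the authors' p-value reaches 0.05. It holds 14.2% of the 13714 genes that the deposited q-values imply were tested. A gene outside it was either untested or had a larger p-value, and nothing is known here of its level. The luminal identity of the cells could be checked only through listed genes. Of 11 luminal prostate markers 5 were listed, or 45.5%, beside the 14.2% of all genes tested. Among them was prostate-specific antigen (KLK3), at 1599 FPKM in the ebastine library and 2476 FPKM in the vehicle library. The prostate membrane antigen FOLH1 stood at 840.4 FPKM with ebastine and 495 FPKM with vehicle. None of 12 basal, leukocyte, fibroblast and endothelial markers was listed, which does not show that they were at 0.

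RefSeq places ODC1 on the minus strand of chromosome 2, and the authors' deposited table gives its span as 10580508 to 10588453 in hg19. No other listed gene overlaps that span. RefSeq annotates the small nucleolar RNA gene SNORA80B inside ODC1 and a pseudogene, ODCP, on another chromosome, and how reads of such copies were counted was not stated. RefSeq (GRCh38.p14) gives ODC1 a pair of transcript starts 315 bases apart. The stretches below are shown because they hold the sequence letters named in textbooks for ODC1 control. They are the parts of the 250 bases before each start that lie outside exons annotated by GENCODE, read 5′ to 3′ on the gene's strand. Capitals mark GGGCGG, the GC box, and CACGTG, the E-box that MYC and MAX bind.

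ODC1, upstream start, chr2:10448505-10448577: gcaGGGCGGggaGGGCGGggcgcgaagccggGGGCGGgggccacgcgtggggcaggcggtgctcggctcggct

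ODC1, downstream start, chr2:10448013-10448120: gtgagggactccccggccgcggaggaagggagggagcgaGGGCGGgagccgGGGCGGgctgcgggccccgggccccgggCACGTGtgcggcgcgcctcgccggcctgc

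The first stretch has 3 GC boxes in 73 bases and a GC content of 84.9%. The second, the beginning of the first intron of transcripts from the upstream start, has 2 GC boxes and 1 E-box, which begins 29 bases before the downstream start. A further CACGTG begins at base 6 after that start. Both strands were searched for 5 motifs over the whole 250 bases before every start in the RefSeq promoter table. GGGCGG occurred in 42.6% of 35116 promoters, and in 13.9% at least 3 times, against 4 occurrences before each ODC1 start. CACGTG occurred in 6.34% of promoters, once before the downstream ODC1 start and not before the upstream one. TATAAA (the TATA box, in 10.7% of promoters), TGACGTCA (1.65%) and the palindromic androgen response element (1 promoter of the 35116) were not found before either ODC1 start. No motif searched contains another. A match describes the letters and not binding.

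The 2.65-fold lower ODC1 value in the ebastine library corresponds to a log2 ratio of -1.41, computed as log2 of (FPKM + 1) in ebastine over (FPKM + 1) in vehicle. Folds of single genes between the libraries below are on this scale, which understates those of low genes. Ratios between genes within a library, and the fold of ODC1 relative to SMS, use plain FPKM. In these bulk samples fewer expressing cells and less RNA per cell cannot be told apart. The authors' deposited table gives ODC1 a log2 fold change of -1.41, a p-value of 5e-05, which 385 genes share as the smallest value, and a q-value of 0.0018. These p-values and q-values, here and below, rest on 1 library per group and hold no measured spread between cultures. A q-value under 0.05 therefore does not show that a difference would recur in other cultures. With q under 0.05, 495 genes were lower and 304 higher in the authors' deposited table, which are 3.61% and 2.22% of those tested. The 1768 listed genes that averaged 1 FPKM or more over both libraries were lower in 57% and higher in 43% of cases. At a size of 2-fold, 86 of them (4.86%) were lower and 32 (1.81%) higher, and since the rule chose ODC1 from this contrast nothing is read from its being among them. That split depends on the scaling between libraries, and the other scalings could be computed only on the p-filtered genes, whose median they move by design. Setting the median ratio of genes that averaged 10 FPKM or more to 0 (centring below), a shift of 0.34 on the log2 scale, gave 25 lower and 115 higher genes, and equal upper quartiles, a shift of 0.21, gave 45 lower and 74 higher. ODC1 remained lower under both, at log2 ratios of -1.07 and -1.20.

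ODC1 combined a high level with a low ratio. It was the gene with rank 37 in FPKM among the 1947 listed in the ebastine library and rank 12 in the vehicle library. It made up 0.397% of the summed FPKM of listed genes with ebastine and 1.06% with vehicle, while the sums themselves were nearly equal, at 89313 FPKM in the ebastine library and 89402 FPKM in the vehicle library. The difference of -589 FPKM was the third largest loss of any listed gene and 3.44% of the summed loss over the 1080 listed genes that were lower. In the ebastine library ODC1 lay between the fatty acid activating enzyme ACSL1, at 362.6 FPKM, and the membrane protein TMBIM6, at 354.87 FPKM. In the vehicle library it lay between lactate dehydrogenase A (LDHA), at 963 FPKM, and the histone variant H2A.Z (H2AFZ), at 933 FPKM. LDHA and H2AFZ stood at 643 and 632 FPKM with ebastine.

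Of the 1768 genes, 10 had a lower ratio than ODC1, which gives it rank 11 from the lowest, or rank 28 with a pseudocount of 0.1 FPKM and rank 5 with 5 FPKM. The mean levels of these 10 ran from 4.87 to 142 FPKM with a median of 22.5 FPKM, below the 649 FPKM of ODC1. Among the 154 listed genes that averaged 100 FPKM or more, 90 were lower and 64 higher. Only the securin gene PTTG1 had a lower ratio there, at 62.8 FPKM with ebastine and 220.3 FPKM with vehicle, a log2 ratio of -1.79. Next above ODC1 came the chromatin protein HMGB2 at 97.5 FPKM with ebastine and 241 FPKM with vehicle, then the microtubule regulator STMN1 at 83.8 FPKM with ebastine and 178 FPKM with vehicle. Phosphoglycerate kinase PGK1 and the ubiquitin-conjugating enzyme UBE2S followed at log2 ratios of -1.001 and -0.98. Among the 33 listed genes with a mean within 2-fold of its own, ODC1 had the lowest ratio, and the other 32 ran from -1.001 to 1.28. Since ODC1 was chosen from this contrast, these ranks describe it and test nothing.

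**Figure D1:**
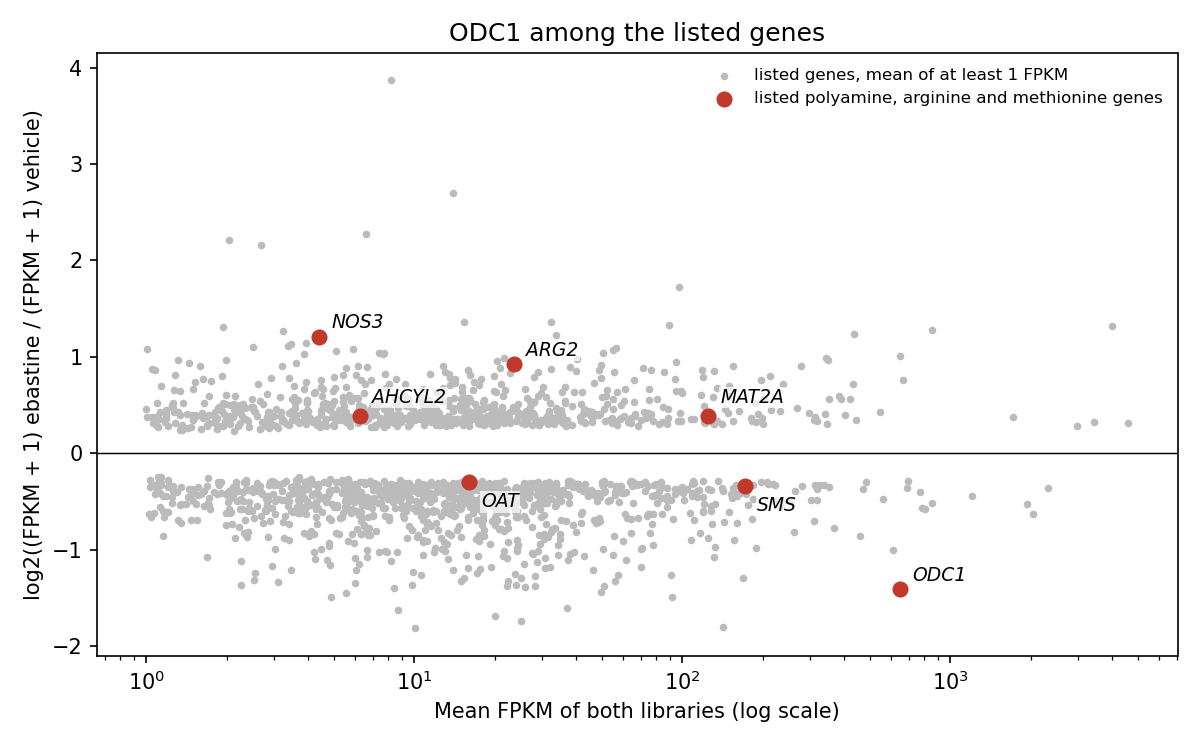
Each grey point is a listed gene, with its mean FPKM over both libraries on a log scale on the horizontal axis and its log2 ratio of ebastine over vehicle on the vertical axis; red points are the listed polyamine, arginine and methionine genes that averaged 1 FPKM or more. ODC1 lies at a mean of 649 FPKM and a log2 ratio of -1.41, below all other genes of similar level, and the empty band around 0 comes from the authors' p-value limit.

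**Figure D2:**
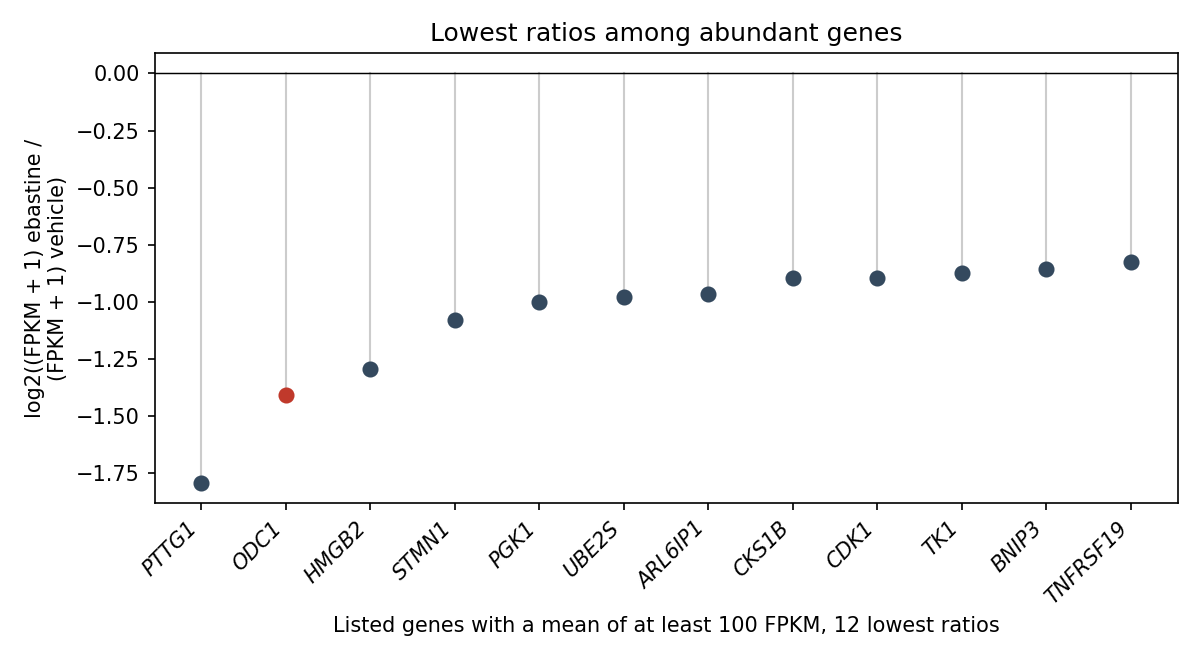
Points give the log2 ratio of ebastine over vehicle for the 12 lowest ratios among the 154 listed genes averaging 100 FPKM or more, 1 library per group, with ODC1 in red. PTTG1 is lowest at -1.79, ODC1 follows at -1.41 and HMGB2 at -1.30.

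The genes whose values in both libraries were nearest to those of ODC1, by distance in log2(FPKM + 1) over the 2 libraries, are given as a description. PGK1 was nearest at a distance of 0.29, with 408 FPKM in the ebastine library and 818 FPKM in the vehicle library. The histone chaperone NAP1L1 followed at 0.67, with 469 FPKM with ebastine and 650.0 FPKM with vehicle. The mitophagy receptor BNIP3 lay at 0.68, with 328 FPKM with ebastine and 594 FPKM with vehicle. Pyruvate kinase PKM, H2AFZ and phosphoglycerate mutase PGAM1 lay at 0.82, 0.83 and 0.85. Genes near ODC1 in both libraries are lower with ebastine by construction, and the ratios of these 6 ran from 2.00-fold lower for PGK1 to 1.28-fold lower for PKM. After centring PKM and PGAM1 were still lower, but only at log2 ratios of -0.024 and -0.037. A likeness over 2 libraries describes levels and says nothing of shared control.

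Spermine synthase was the other listed gene of the polyamine enzymes and their controls, which makes 2 of 13, or 15.4%, beside the 14.2% of tested genes that the table lists. SMS (chromosome X, 21958691 to 22012955 in hg19), which turns spermidine into spermine, stood at 151 FPKM in the ebastine library and 191 FPKM in the vehicle library. Its ratio was 1.27-fold lower, a log2 ratio of -0.34, and it depended on the scaling, since centring left it at -0.0061. SMS had q = 0.188 in the authors' deposited table, above 0.05. The ratio of ODC1 to SMS within a library does not depend on the scaling between libraries. It was 2.35 with ebastine and 4.93 with vehicle, so ODC1 was 2.10-fold lower relative to SMS. Of the 2 listed genes ODC1 alone was lower by at least 1.5-fold, a size that 18.6% of the 1768 listed genes reached in that direction. Besides the 6 genes named at the start, OAZ3, AZIN2, SAT2 and the polyamine oxidases SMOX and PAOX were not listed.

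**Figure D3:**
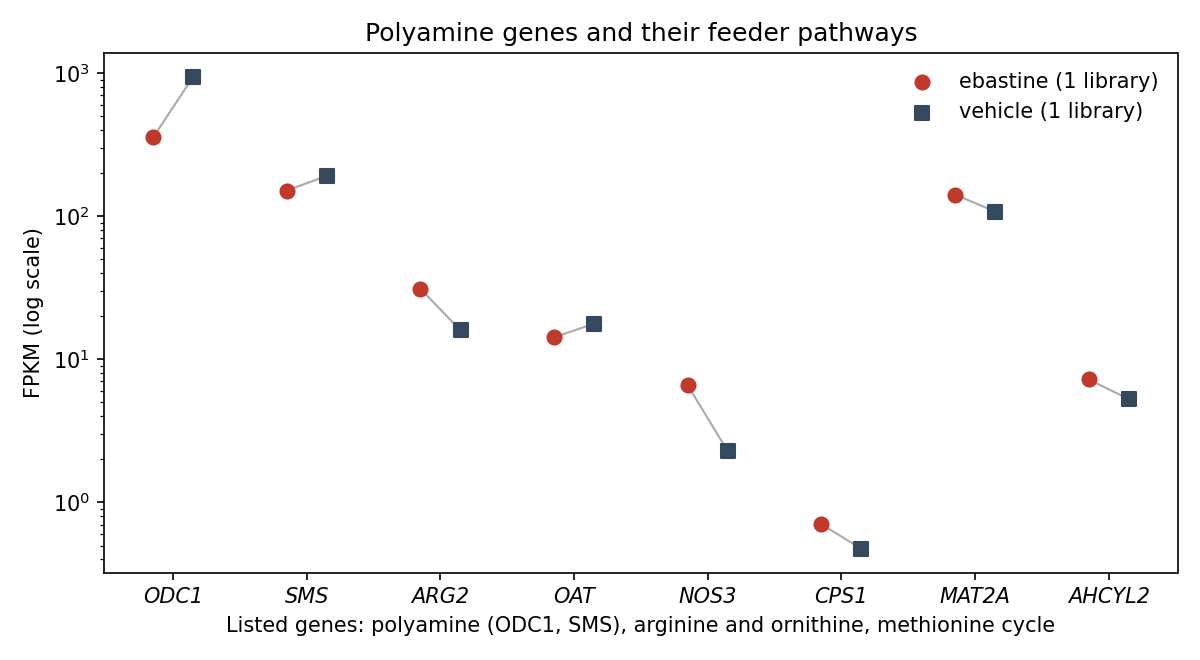
Points give FPKM on a log scale for the 8 listed genes of polyamine synthesis, arginine and ornithine metabolism and the methionine cycle, with the ebastine library as red circles left of the vehicle library as dark squares, 1 library each. ODC1 shows the widest drop, 354.95 against 944 FPKM, and ARG2 and OAT change order between the libraries.

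Among genes that make or use ornithine, the arginase ARG2 was higher with ebastine. Of 23 genes of arginine and ornithine metabolism 4 were listed (17.4%). The mitochondrial arginase ARG2, which splits arginine into ornithine and urea, stood at 31.1 FPKM in the ebastine library and 15.9 FPKM in the vehicle library. That was 1.89-fold higher, a log2 ratio of 0.92, with q = 0.0184 in the authors' deposited table. Ornithine aminotransferase (OAT), which links ornithine to glutamate and proline, stood at 14.2 FPKM with ebastine and 17.8 FPKM with vehicle. It was 1.23-fold lower as deposited, but centring turned it to a log2 ratio of 0.015, with q = 0.342 in the authors' deposited table. ARG2 was 2.18 times the level of OAT with ebastine and 0.897 times with vehicle, a comparison that the scaling does not touch. The ARG2 value can include a neighbouring gene, however, because its reported locus was 1.73 times as long as the RefSeq gene. ODC1 was 11.4 times the level of ARG2 with ebastine and 59.3 times with vehicle.

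The endothelial nitric oxide synthase NOS3, which uses arginine to make nitric oxide, stood at 6.58 FPKM with ebastine and 2.28 FPKM with vehicle. It was 2.31-fold higher, with q = 0.0018 in the authors' deposited table. Carbamoyl phosphate synthase CPS1, of the urea cycle, was a low gene at 0.706 FPKM with ebastine and 0.473 FPKM with vehicle, under the mean of 1 FPKM, with q = 0.216 in the authors' deposited table. Of the 3 listed genes above that mean, 2 were higher by at least 1.5-fold, beside 9.67% of all 1768. The reported loci of ARG2 and NOS3 were 1.73 and 1.42 times as long as the RefSeq genes, so both values can include a neighbour. ARG1, OTC, ASS1, ASL, the proline enzymes ALDH18A1 and PYCR1 and the arginine transporter SLC7A1 were among the 19 not listed.

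The promoter of ARG2 is shown because this gene was the enzyme listed one step before ODC1. Capitals mark TGACGTCA, the cyclic AMP response element, and GGGCGG, in the part of the 250 bases before the RefSeq start (GRCh38.p14, plus strand) that lies outside GENCODE exons.

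ARG2, chr14:67619670-67619797: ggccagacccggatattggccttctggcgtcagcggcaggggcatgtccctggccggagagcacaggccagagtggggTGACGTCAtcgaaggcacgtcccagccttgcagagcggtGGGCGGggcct

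This stretch of 128 bases holds 1 TGACGTCA, which begins 172 bases before the start. Another begins 64 bases before it, within an exon of a longer GENCODE transcript. Of the 35116 promoters 1.65% hold the element in these 250 bases and 0.0541%, or 19, hold it at least 2 times. The same search found 1 GGGCGG and none of the other 4 motifs before the start of SMS.

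The methionine cycle supplies the S-adenosylmethionine from which the aminopropyl groups come. Of 17 genes looked up for this cycle, salvage enzymes and relatives of its enzymes included, 2 were listed (11.8%). Both were higher with ebastine, as were 43% of the 1768 listed genes that averaged 1 FPKM or more. MAT2A, the methionine adenosyltransferase of most tissues, stood at 142 FPKM with ebastine and 108 FPKM with vehicle, 1.31-fold higher. Its reported locus was 3.69 times as long as the RefSeq gene and can include other genes. AHCYL2, a relative of S-adenosylhomocysteine hydrolase, stood at 7.23 FPKM with ebastine and 5.28 FPKM with vehicle, also 1.31-fold higher. In the authors' deposited table MAT2A had q = 0.188 and AHCYL2 q = 0.0726. The salvage enzyme MTAP was not listed. ODC1 was 2.51 times the level of MAT2A with ebastine and 8.76 times with vehicle. None of 13 polyamine transport genes and none of the 4 genes of the hypusine pathway, which uses spermidine to modify the translation factor EIF5A, was listed. Over the 5 lists of polyamine, ornithine and methionine genes together the table holds 8 of 70, a share of 11.4%, next to 14.2% of all genes tested. How many of the 70 the authors tested is not known.

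In both libraries ODC1 had the highest level of the 8 listed genes, with SMS and MAT2A after it and CPS1 last. The order differed between libraries in 1 place. ARG2, whose value can include a neighbouring gene, stood above OAT with ebastine and below it with vehicle. With no replicates it cannot be said which neighbours in this order differ beyond their spread.

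**Figure D4:**
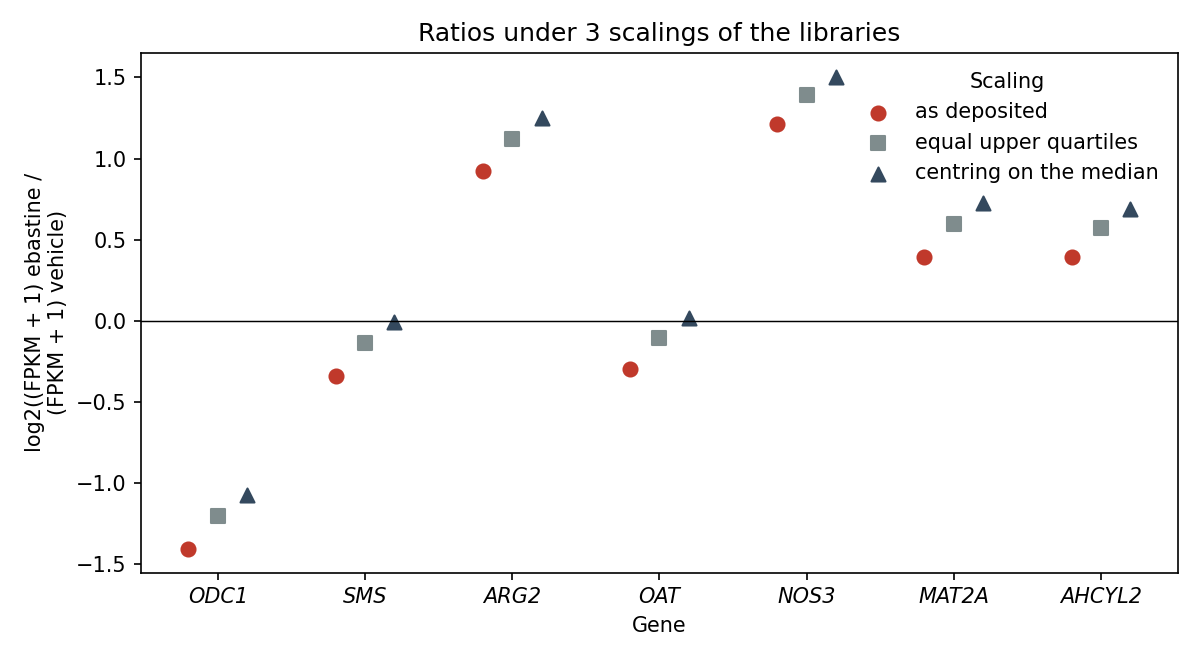
Points give the log2 ratio of ebastine over vehicle for 7 listed genes under the authors' scaling (red circles), equal upper quartiles (grey squares) and centring on the median (dark triangles). ODC1 lies between -1.41 and -1.07 and ARG2, NOS3, MAT2A and AHCYL2 stay above 0, while SMS reaches -0.0061 and OAT 0.015.

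MYC, a known activator of ODC1, and its partner MAX were not listed. Of 12 genes of the MYC network 3 were listed, or 25%, next to 14.2% of all genes tested. They were the MAX-binding repressor MXD3 at 33.2 FPKM with ebastine and 51.1 FPKM with vehicle, the related repressor MXI1 at 22.9 FPKM with ebastine and 29.4 FPKM with vehicle, and MLXIP, a glucose-sensing factor, at 11.4 FPKM with ebastine and 8.72 FPKM with vehicle. MXD3 was 1.52-fold lower and MXI1 1.27-fold lower, MXI1 at only -0.021 on the log2 scale after centring. MLXIP was 1.27-fold higher, with a reported locus 1.64 times as long as the RefSeq gene. In the authors' deposited table all 3 had q above 0.05, between 0.175 and 0.326. Of 29 other MYC targets 5 were listed, or 17.2%, with a median log2 ratio of -0.33 beside -0.32 over the 1768 listed genes. LDHA was 1.496-fold lower and the telomerase subunit TERT 1.42-fold lower, at 3.70 FPKM with ebastine and 5.68 FPKM with vehicle. The nucleolar protein FBL was 1.26-fold lower as deposited and at a log2 ratio of 0.0035 after centring. The transferrin receptor TFRC was 1.73-fold higher and the ribosome assembly factor RRS1 1.33-fold higher. Of these 5, LDHA and TFRC had q under 0.05 in the authors' deposited table, while TERT had 0.0667, RRS1 0.098 and FBL 0.227.

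Translation of the ODC1 message is known to depend on the cap-binding factor eIF4E. Of 9 genes that act on the message 1 was listed, or 11.1%, next to 14.2% of all genes tested. This gene, EIF4EBP1, the inhibitor of eIF4E, stood at 229 FPKM with ebastine and 299.8 FPKM with vehicle. It was 1.31-fold lower, at -0.056 on the log2 scale after centring, with q = 0.105 in the authors' deposited table. None of 35 proteasome genes was listed. Of 9 genes of related pyridoxal phosphate enzymes 1 was listed (11.1%). This was the aromatic amino acid decarboxylase DDC, at 14.8 FPKM with ebastine and 11.7 FPKM with vehicle, with q = 0.346 in the authors' deposited table. Histidine decarboxylase HDC, which makes histamine, was not listed.

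Listed luminal prostate genes differed in both directions beside ODC1. KLK3 was 1.55-fold lower and KLK2 1.71-fold lower, while FOLH1 was 1.70-fold higher and the acid phosphatase ACPP 2.04-fold higher, at 5.55 FPKM with ebastine and 2.21 FPKM with vehicle. The protease TMPRSS2 was 1.25-fold lower as deposited and at a log2 ratio of 0.0081 after centring, and its reported locus was 1.52 times as long as the RefSeq gene. The median of the 5 was -0.33, near the -0.32 of the 1768 listed genes. The list pools genes without regard to the direction of their androgen response, so this median does not measure that response.

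Near ODC1 on chromosome 2, 3 other listed genes had their locus midpoint within 2 Mb. How many genes in this window were tested is not known here. The ribonucleotide reductase subunit RRM2, 317 kb away, stood at 37.4 FPKM with ebastine and 60.2 FPKM with vehicle, 1.59-fold lower. The Arf regulator ASAP2, 1138 kb away, stood at 4.69 FPKM with ebastine and 6.05 FPKM with vehicle, 1.24-fold lower and at a log2 ratio of -0.028 after centring. The phosphatidate phosphatase LPIN1, 1308 kb away, stood at 29.4 FPKM with ebastine and 16.1 FPKM with vehicle, 1.78-fold higher. The listed neighbours therefore went in both directions, as did the 1768 listed genes, of which 57% were lower and 43% higher. In the authors' deposited table RRM2 and LPIN1 had q = 0.0018, and ASAP2 had q = 0.207, above 0.05. The reported locus of RRM2 was only 0.10 times as long as the RefSeq gene.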

How the data were processed

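RNA sequencing of polyadenylated RNA was analysed from 1 ebastine-treated and 1 vehicle-treated C4-2 culture. Per the submitters' processing notes, TopHat2, Cuffdiff and the hg19 build were used, without stated versions. Per the file headers, the deposited FPKM values, the log2 fold change, the test statistic (a score, not used here), and the p-value and q-value are Cuffdiff output. The authors kept genes with a p-value up to 0.0499, and q times rank over p put the number tested at 13714 (13701.2 to 13714.1). Ratios were computed in Python 3.11.15 (pandas 2.3.3, numpy 2.4.6) with a pseudocount of 1 FPKM, which understates changes of low genes, over genes averaging 1 FPKM or more. With 1 library per group no test was run, and the depth is unknown. File starts count from 0 and were converted.

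The 12 gene lists were matched by symbol and older names. ODC1, the lists and the rules were chosen with earlier results of these data known. Genes named were ODC1, listed members of the lists (up to 6 of the MYC target, proteasome and luminal lists), listed genes within 2 Mb, the 6 nearest in level, those averaging 100 FPKM or more with a lower ratio or the next 4, and the neighbours in FPKM. Genes given only as not listed were picked from the lists. Alternatives were pseudocounts of 0.1 and 5, other minimum means, a q-value under 0.05 and 3 scalings. Promoters came from RefSeq (GRCh38.p14), with exons from GENCODE. The ratio method was tested on simulated data.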

Additional observations from a re-analysis of the deposited data

How the results depend on the processing

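The ODC1 log2 ratio of -1.41 was -1.41 with a pseudocount of 0.1 FPKM, -1.40 with 5 FPKM, -1.41 with equal sums, -1.20 with equal upper quartiles and -1.07 after centring on the median. Of 37 other named genes all kept their direction under the first 4 of these settings, which was fixed by arithmetic. A pseudocount added to both values cannot change a direction. Equal sums shifted log2 ratios by at most 0.0014 and equal upper quartiles by at most 0.21. Both shifts are less than the smallest drop among these genes, -0.30 for OAT. Centring, a shift of 0.34, left 34 in their direction, while FBL (0.0035), OAT (0.015) and TMPRSS2 (0.0081) turned. The ornithine, methionine, transport and hypusine lists had 1 lower and 4 higher genes as reported, 0 lower after centring, and 0 lower and 2 higher with a deposited q-value under 0.05, where the polyamine list had 1 lower. At 2-fold, the 32 higher genes became 56 and 12 with pseudocounts of 0.1 and 5 FPKM, 21 with a minimum mean of 5 FPKM, 74 with equal upper quartiles and 115 after centring. The 86 lower genes became 126 and 30 with pseudocounts of 0.1 and 5 FPKM, 45 with equal upper quartiles and 25 after centring. ODC1 had rank 11 in ratio, and rank 28 and 5 with pseudocounts of 0.1 and 5 FPKM. The cause of these shifts was not tested beyond the settings themselves. No paired analysis was possible because each group held 1 library.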
